A study of Homo sapiens with 3 samples.

Results

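The kinetochore is the protein assembly that holds chromosomes to spindle microtubules, and the spindle assembly checkpoint is the signal that unattached kinetochores send to delay anaphase. The 43 genes described here encode the inner kinetochore (13 genes), the outer kinetochore (15), the checkpoint (9), the chromosomal passenger complex (4) and the shugoshins (2). They were taken by symbol from a table of 20332 genes, where all 43 were found, and all 43 were among the 11322 genes kept for analysis (mean of at least 1 CPM, that is, 1 count in 1000000). RNA-seq was done on MV-4-11, an established human biphenotypic leukaemia line that carries a KMT2A fusion and a FLT3 internal tandem duplication, labelled wild type and grown in IMDM with serum. The 3 groups were untreated control cells cultured for 1 day, cells given 0.5 nM FL-Fc-DM1 for 1 day and cells given 1.5 nM FL-Fc-DM1 for 1 day. Its name reads as the ligand of FLT3 fused to an Fc domain and loaded with the tubulin-binding maytansinoid DM1, which stops microtubules from growing. Each group had 1 library, so no difference has a replicate check, no test was run, and each ratio compares libraries rather than conditions. Both treated libraries are set against the same control library.

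Inner kinetochore proteins stay at the centromere around the histone variant CENP-A, and the outer kinetochore, built on them for mitosis, binds microtubules. At a kinetochore without microtubules the kinases TTK and BUB1 and the MAD and BUB proteins assemble a complex that restrains CDC20, the activator of the anaphase-promoting complex. Microtubule poisons act on dividing cells through this checkpoint. Transcription of many of these genes is tied to the cell cycle, through E2F sites in genes of the G1/S transition and through the cell cycle homology region (CHR), the element read by DREAM, MYBL2 and FOXM1 complexes, in genes of G2 and mitosis.

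The NDC80 complex, which couples kinetochores to microtubules, had the widest range of log2 ratios at 1.5 nM among the complexes compared (0.78), so the promoters of its 4 genes are shown, with those of the checkpoint kinase gene BUB1 and the passenger scaffold gene INCENP, which differed in opposite directions. The stretches run from 120 bases before to 30 bases after the RefSeq transcript start (GRCh38.p14), 5′ to 3′ on the gene's strand. Capitals mark matches on either strand to the CHR, to E2F cores and to the CCAAT box, whose letters are CCAAT. The CHR was searched as TTTGAA and in the variant form TTCGAA. E2F cores were searched as TTCCCGC, in a second form TTCGCGC, in another form TTGCCGC and in the last form TTGGCGC. The printed stretches lie at chr18:2571437-2571586 (plus strand) for NDC80, chr1:163321834-163321983 (plus) for NUF2, chr19:11155753-11155902 (minus) for SPC24, chr2:168890401-168890550 (minus) for SPC25, chr2:110678034-110678183 (minus) for BUB1 and chr11:62123891-62124040 (plus) for INCENP.
NDC80: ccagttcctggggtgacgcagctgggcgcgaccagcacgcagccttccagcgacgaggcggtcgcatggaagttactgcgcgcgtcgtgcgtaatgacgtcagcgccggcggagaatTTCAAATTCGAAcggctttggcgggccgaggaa
NUF2: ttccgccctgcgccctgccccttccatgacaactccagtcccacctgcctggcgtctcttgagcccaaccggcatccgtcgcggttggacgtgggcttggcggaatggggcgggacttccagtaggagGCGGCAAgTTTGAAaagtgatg
SPC24: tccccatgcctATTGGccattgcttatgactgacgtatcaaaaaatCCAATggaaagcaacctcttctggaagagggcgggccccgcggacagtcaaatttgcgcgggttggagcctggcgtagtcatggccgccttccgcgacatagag
SPC25: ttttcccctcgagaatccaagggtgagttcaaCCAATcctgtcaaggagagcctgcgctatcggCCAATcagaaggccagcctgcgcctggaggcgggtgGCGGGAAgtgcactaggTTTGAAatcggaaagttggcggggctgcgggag
BUB1: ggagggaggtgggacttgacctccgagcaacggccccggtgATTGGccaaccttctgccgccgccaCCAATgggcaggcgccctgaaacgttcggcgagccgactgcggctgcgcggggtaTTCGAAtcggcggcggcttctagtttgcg
INCENP: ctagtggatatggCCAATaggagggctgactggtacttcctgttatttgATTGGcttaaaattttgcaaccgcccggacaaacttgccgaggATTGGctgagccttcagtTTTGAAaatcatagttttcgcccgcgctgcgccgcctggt
SPC25 had a CHR match that begins 3 bases before the start, an E2F match and CCAAT boxes, while SPC24 had CCAAT boxes and neither of the other motifs in the window of 250 bases before to 50 after the start. NDC80 held a pair of CHR matches next to each other at its start, and NUF2 held a CHR match beside an E2F match. BUB1 and INCENP each had a CHR match and CCAAT boxes. SPC25 and NUF2, whose ratios at 1.5 nM lay far apart, both held a CHR and an E2F match.

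Estimated counts totalled 22329953 for the control, 16427206 for 0.5 nM and 16864857 for 1.5 nM, and the lowest count of any of the 43 genes was 242. Of 12 myeloid leukaemia markers, all had counts in the 3 libraries, with CD14 nearly absent at 6, 1 and 3 counts in control, 0.5 nM and 1.5 nM. Of 13 epithelial and adherent cell markers, those at 0 counts numbered 3 in the control library, 2 in the 0.5 nM library and 7 in the 1.5 nM library, EPCAM among them in every library. IRS4, an insulin receptor substrate gene, had 224, 204 and 0 counts, and the desmosome gene DSP 32, 27 and 0 in the same order. The keratin gene KRT8 stood the other way, with 33, 32 and 44 counts. Without PECAM1, which myeloid cells also express, these markers summed to 36.8 CPM in the control, 38.6 CPM at 0.5 nM and 10.4 CPM at 1.5 nM. The lower sum is in the library behind the 1.5 nM ratios below, and its part in those ratios was not tested. Intervals in square brackets are exact 95% intervals from the 2 counts and cover counting error only.

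In deposited TPM (transcripts in every 1000000), which allow for gene length, the 43 genes ranged over the control library from 8.55 TPM for CENPP, a CENP-O complex subunit, to 397 TPM for BUB3, a WD40 protein of the checkpoint complex. The next highest control levels were 196 TPM for ZWINT, which recruits the ROD-ZW10-ZWILCH complex, 173 TPM for MAD2L1, which encodes the checkpoint effector MAD2, and 156 TPM for BUB1. Checkpoint genes had the highest median level of the larger groups, with 78.0 TPM in the control, 73.6 TPM at 0.5 nM and 73.5 TPM at 1.5 nM. The inner kinetochore median was 53.8 TPM in the control, 52.8 TPM at 0.5 nM and 38.7 TPM at 1.5 nM. The outer kinetochore median was 56.4 TPM, 53.3 TPM and 43.3 TPM in that order. Summed over the 43 genes, the level was 3141 TPM in the control, 3139 TPM at 0.5 nM and 2915 TPM at 1.5 nM.

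**Figure D1:**
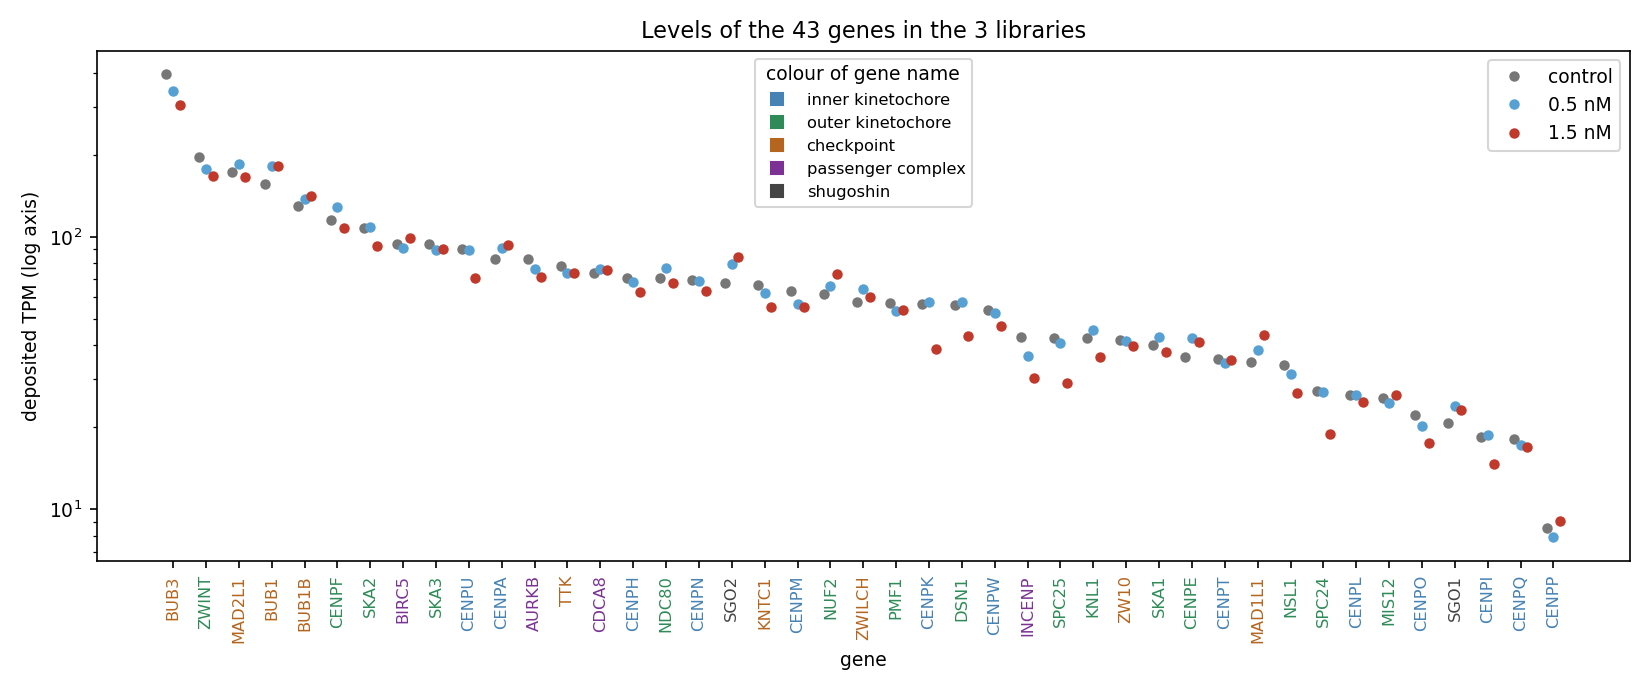
Deposited TPM (log axis) of each of the 43 genes in the control, 0.5 nM and 1.5 nM libraries, ordered by the control level, 1 point per library and gene names coloured by role. BUB3 is highest in each library and CENPP lowest, and the 1.5 nM points of CENPK, INCENP, SPC25 and SPC24 lie below the other libraries' points.

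Levels differed within complexes as well as between them. In the control the NDC80 complex genes ran from 27.2 TPM for SPC24 to 70.9 TPM for NDC80, and the CENP-O, CENP-P, CENP-Q and CENP-U genes from 8.55 TPM to 90.1 TPM, a ratio of 10.5 between highest and lowest. The 3 genes of the ROD-ZW10-ZWILCH complex lay closest together, with a ratio of 1.59 in the control library, 1.56 in the 0.5 nM library and 1.51 in the 1.5 nM library. BUB3 stood at 2.55 times the TPM of BUB1 in the control, 1.88 times at 0.5 nM and 1.66 times at 1.5 nM.

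At 0.5 nM against the control, kinetochore and checkpoint genes stayed near the control level. Genes were counted as higher or lower at an absolute log2 ratio of CPM of 0.3 or more, a 1.23-fold difference. None of the 43 was higher, where 8.27% of all genes were, and 1 of 43 (2.33%) was lower, where 5.26% of all genes were. The all-gene shares include genes with low counts, while each of the 43 had at least 242 counts in every library. Raising the filter from 1 to 5 CPM brought the all-gene shares down to 4.91% higher and 3.28% lower. None of the 43 passed a 2-fold difference, which 0.530% of all genes did upward and 0.230% downward. The median log2 ratio of the 43 genes was -0.06, with 16 above 0, where 50.6% of all genes lay, and 27 below 0 (62.8%), where 49.4% of all genes lay. The median of all genes was 0.00. In bulk RNA, fewer cells that express a gene and less of its RNA per cell cannot be told apart.

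At 1.5 nM against the control, lower genes were found in 4 of the 5 role groups. Within 0.3 of the control lay 32 of the 43 genes and 8687 of all 11322 genes, which are similar shares at the 1 CPM filter. Lower genes were 10 of 43 (23.3%), against 10.2% of all genes, and 1 of 43 (2.33%) was higher, against 13.1% of all genes. With the filter at 5 CPM the all-gene shares were 8.18% lower and 9.63% higher, and 10 of the 43 were lower and 2 higher. No gene of the 43 passed a 2-fold difference, which 1.47% of all genes did upward and 0.574% downward. The median log2 ratio was -0.12, against 0.00 for all genes. Above 0 lay 14 of 43, against 49.8% of all genes, and below 0 lay 29 of 43 (67.4%), against 50.2% of all genes. The ratios ran from -0.58 for SPC25 to 0.32 for SGO2. The lower genes were the outer kinetochore genes SPC25, SPC24, DSN1, SKA2 and ZWINT, the inner kinetochore genes CENPK, CENPO and CENPU, the checkpoint gene BUB3 and the passenger gene INCENP.

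**Figure D2:**
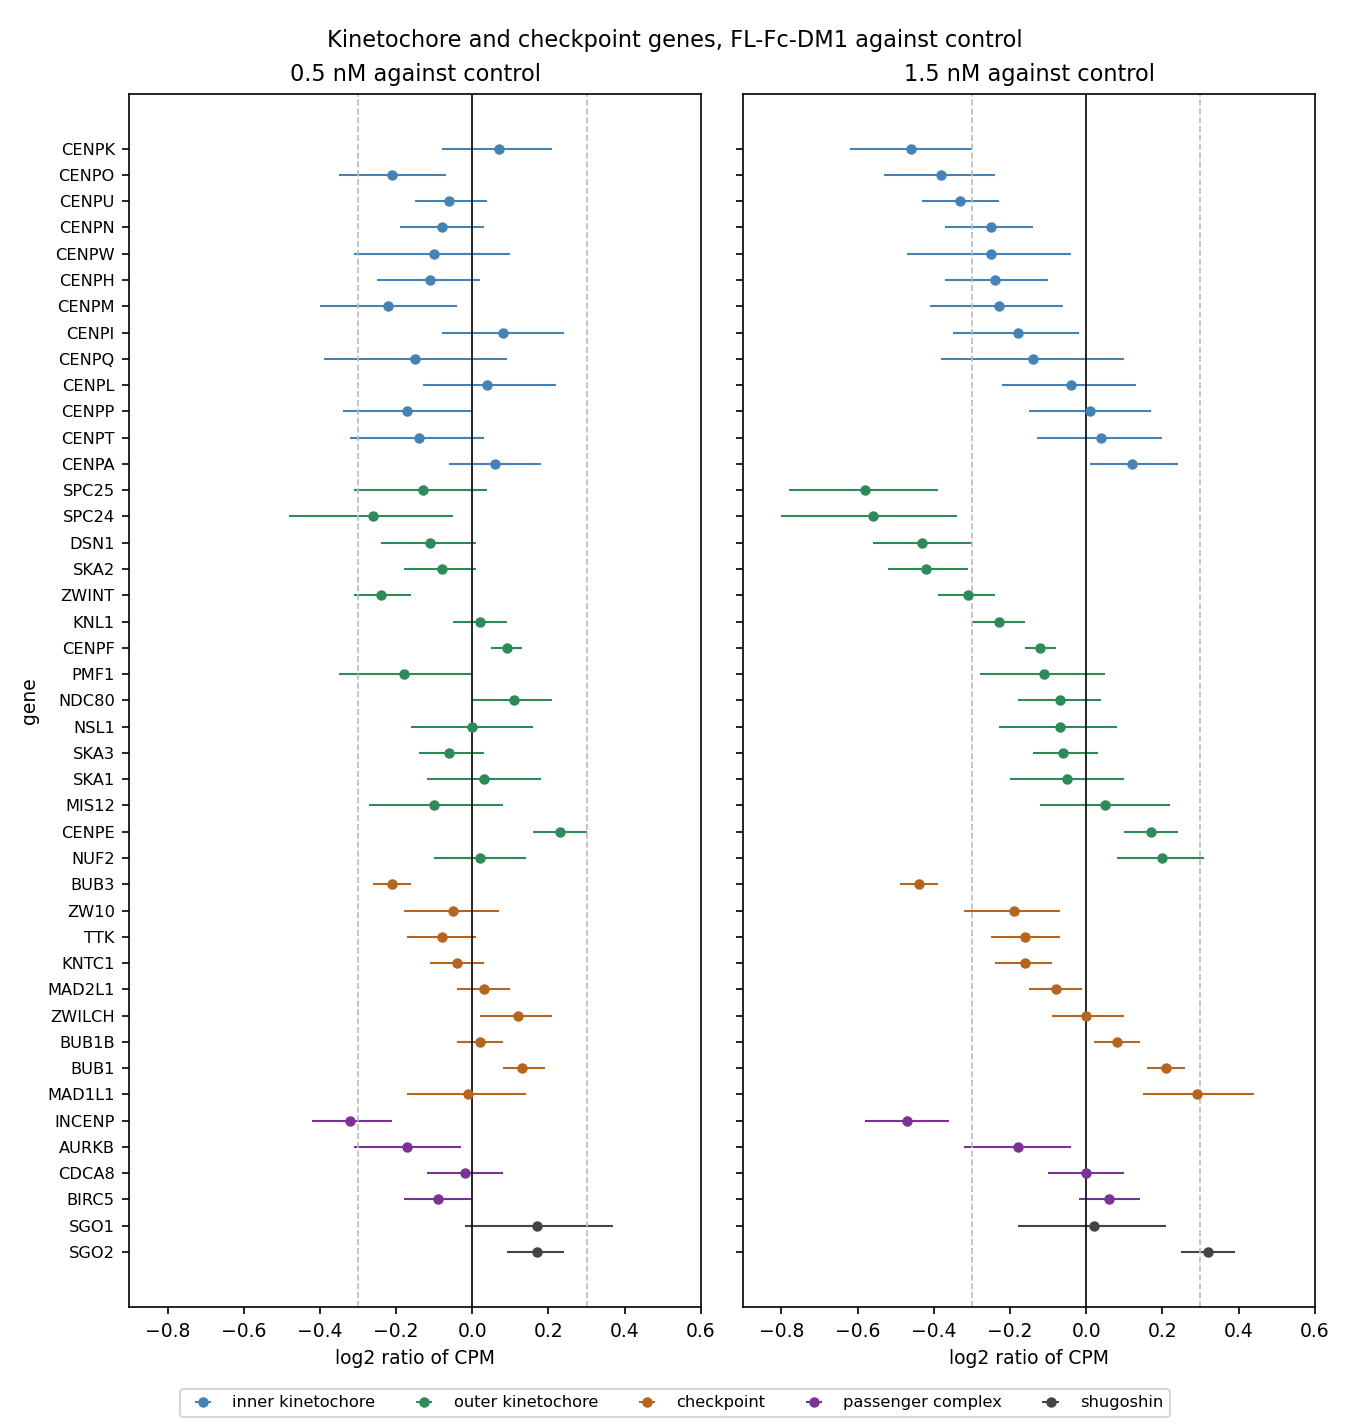
Log2 ratio of CPM (horizontal axis) for each of the 43 genes at 0.5 nM (left) and 1.5 nM (right) against the control, coloured by role, with bars for exact 95% counting intervals and dashed lines at -0.3 and 0.3. INCENP lies past the lower line at 0.5 nM, and 10 genes lie past it at 1.5 nM, with SGO2 past the upper line. Both panels use the same control library.

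Inner kinetochore genes had a median log2 ratio of -0.10 at 0.5 nM and -0.23 at 1.5 nM, with 10 of 13 (76.9%) below 0 at 1.5 nM, against 50.2% of all genes, and 3 of 13 (23.1%) lower, against 10.2%. CENPK (ENSG00000123219), a subunit of the CENP-H, CENP-I, CENP-K and CENP-M complex, was at 39.7 CPM in the control, 41.6 CPM at 0.5 nM and 28.9 CPM at 1.5 nM. Its 1.5 nM library stood below both others, with log2 ratios to the control of 0.07 [-0.08, 0.21] at 0.5 nM and -0.46 [-0.62, -0.30] at 1.5 nM. Against 0.5 nM its ratio at 1.5 nM was -0.52 [-0.69, -0.35], the farthest from 0 of the 43 genes in that comparison. The other 3 genes of this complex had -0.24 (CENPH), -0.23 (CENPM) and -0.18 (CENPI) at 1.5 nM against the control.

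CENPU (ENSG00000151725), which docks the kinase PLK1 at the inner kinetochore, had 96.5 CPM in the control, 92.7 CPM at 0.5 nM and 76.7 CPM at 1.5 nM, and its ratio at 1.5 nM was -0.33 [-0.43, -0.23]. CENPO (ENSG00000138092), in the same complex, had 47.6 CPM, 41.0 CPM and 36.5 CPM, with ratios of -0.21 [-0.35, -0.07] at 0.5 nM and -0.38 [-0.53, -0.24] at 1.5 nM. Both have counts that are not whole, for a reason the sources do not state, so their values are uncertain. In the same complex CENPQ had -0.14 at 1.5 nM and CENPP, whose counts are not whole either, 0.01. The 4 genes of the complex thus did not share a size.

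CENPA (ENSG00000115163), the histone H3 variant that marks the centromere, was at 58.9 CPM in the control, 61.3 CPM at 0.5 nM and 64.2 CPM at 1.5 nM. With 0.12 [0.01, 0.24] at 1.5 nM it was the highest of the inner kinetochore genes. The DNA-binding subunit genes CENPT and CENPW had 0.04 and -0.25, and the CENP-A nucleosome reader CENPN had -0.25 with its partner CENPL at -0.04. CENPM (ENSG00000100162) was at 63.4 TPM in the control, 56.9 TPM at 0.5 nM and 55.2 TPM at 1.5 nM. Its CPM ratio of -0.22 [-0.40, -0.04], -0.15 in TPM, was the lowest of the inner kinetochore genes at 0.5 nM. With the trend over GC content removed CENPM had -0.15 there, and CENPQ was the lowest with -0.27.

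Outer kinetochore genes had a median of -0.06 at 0.5 nM and -0.11 at 1.5 nM, with 12 of 15 below 0 at 1.5 nM, against 50.2% of all genes, and 5 of 15 (33.3%) lower, against 10.2%. The NDC80 complex is a rod of 2 dimers: NDC80 and NUF2 hold the microtubule, and SPC24 and SPC25 hold the inner kinetochore. SPC24 (ENSG00000161888) was at 21.2 CPM in the control, 17.6 CPM at 0.5 nM and 14.3 CPM at 1.5 nM, with ratios of -0.26 [-0.48, -0.05] and -0.56 [-0.80, -0.34]. In deposited TPM its ratio at 0.5 nM was -0.01, so its difference at that dose depends on the unit, and at 1.5 nM it was -0.50. SPC25 (ENSG00000152253), uncertain because its counts are not whole, was at 29.5 CPM, 26.8 CPM and 19.6 CPM, with ratios of -0.13 [-0.31, 0.04] and -0.58 [-0.78, -0.39]. Both were lowest at 1.5 nM, and only 2.24% of all genes had a lower ratio there than SPC25.

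The other dimer stood near or above the control. NDC80 (ENSG00000080986) was at 73.1 CPM in the control, 78.6 CPM at 0.5 nM and 69.6 CPM at 1.5 nM, with a ratio of -0.07 [-0.18, 0.04] at 1.5 nM. NUF2 (ENSG00000143228) was at 60.2 CPM, 61.0 CPM and 68.9 CPM, with 0.20 [0.08, 0.31] at 1.5 nM. The intervals of SPC24 and SPC25 at 1.5 nM overlapped neither that of NDC80 nor that of NUF2, within counting error. Of the complex's counts, the control library had 27.5% [26.2, 28.9] in SPC24 and SPC25 together, the 0.5 nM library 24.1% [22.6, 25.7] and the 1.5 nM library 19.7% [18.3, 21.2] (exact Clopper-Pearson intervals). This share was chosen after the values were seen, and at 0.5 nM it rests on the SPC24 counts whose difference was not seen in TPM.

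**Figure D3:**
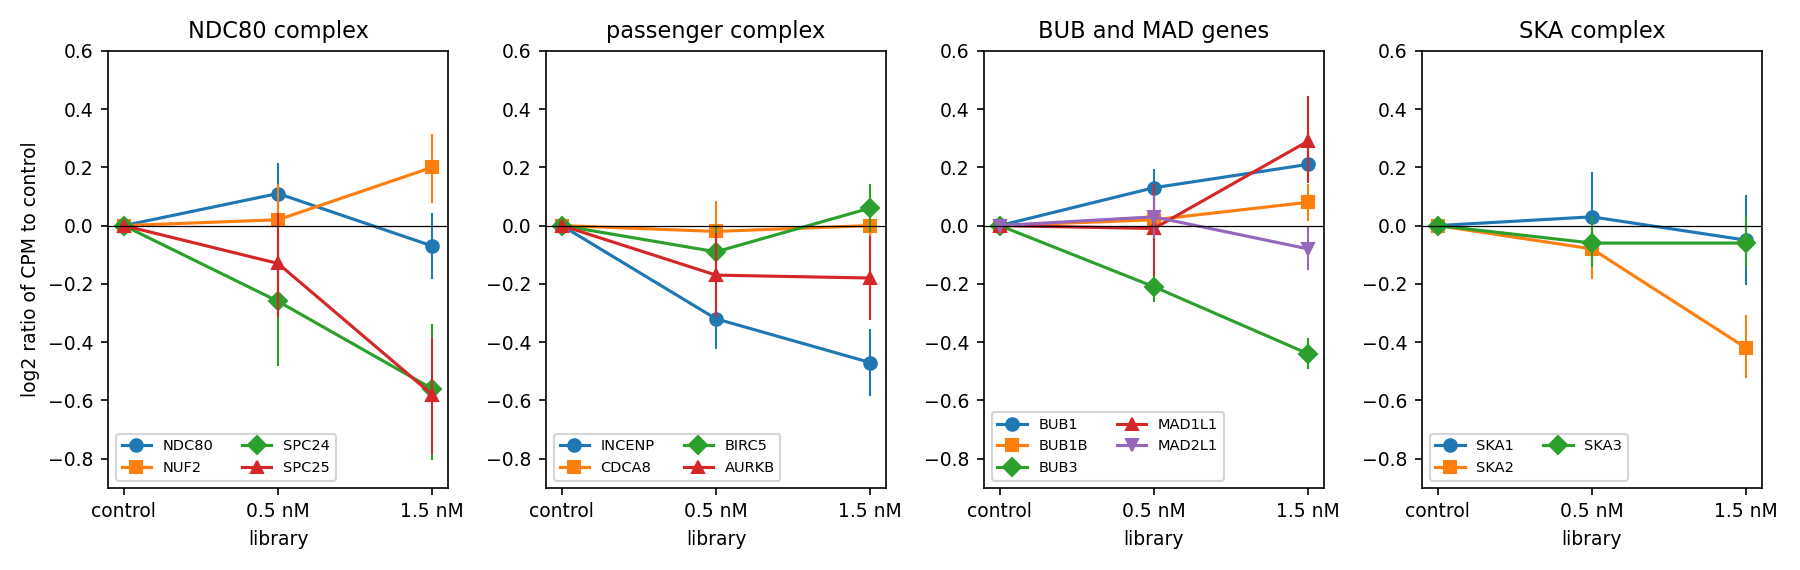
Log2 ratio of CPM to the control (vertical axis) in the control, 0.5 nM and 1.5 nM libraries for genes of the NDC80 complex, the passenger complex, the BUB and MAD genes and the SKA complex, with bars for exact 95% counting intervals. SPC24 and SPC25 end at -0.56 and -0.58 while NUF2 ends at 0.20, and INCENP, BUB3 and SKA2 lie below the other genes of their panels at 1.5 nM.

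The MIS12 complex bridges inner and outer kinetochore. Its gene DSN1 (ENSG00000149636) was at 60.9 CPM in the control, 56.3 CPM at 0.5 nM and 45.2 CPM at 1.5 nM, a ratio of -0.43 [-0.56, -0.30] at 1.5 nM. The other 3 genes of the complex had -0.11 (PMF1), -0.07 (NSL1) and 0.05 (MIS12). In deposited TPM DSN1 had -0.37 and NSL1 -0.34, so the distance of DSN1 from NSL1 was not seen in that unit. KNL1 (ENSG00000137812), the scaffold that BUB1 and BUB3 bind, was at 180.5 CPM, 183.2 CPM and 153.6 CPM, with -0.23 [-0.30, -0.16] at 1.5 nM. ZWINT (ENSG00000122952) was at 175.8 CPM, 149.3 CPM and 141.5 CPM, with -0.24 [-0.31, -0.16] at 0.5 nM and -0.31 [-0.39, -0.24] at 1.5 nM. In TPM its ratio at 1.5 nM was -0.22 and with total-count scaling -0.28, both short of the threshold.

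The SKA complex strengthens the hold of NDC80 on microtubules. SKA2 had 95.5 CPM in the control, 90.1 CPM at 0.5 nM and 71.5 CPM at 1.5 nM, a ratio of -0.42 [-0.52, -0.31] at 1.5 nM, and -0.21 in deposited TPM, short of the threshold. Its partners SKA1 and SKA3 had -0.05 and -0.06. CENPE (ENSG00000138778), a kinesin that moves chromosomes to the spindle equator, was at 153.6 CPM, 180.0 CPM and 172.6 CPM, above the control in both treated libraries, with 0.23 [0.16, 0.30], or 0.13 with the trend over GC content removed, and 0.17 [0.10, 0.24]. CENPF (ENSG00000117724), a large protein of the outer corona, was at 608.2 CPM, 647.3 CPM and 558.6 CPM, with 0.09 [0.05, 0.13] and -0.12 [-0.16, -0.08].

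Checkpoint genes had a median of -0.01 at 0.5 nM and -0.08 at 1.5 nM, with 4 of 9 above 0 at 1.5 nM, where 49.8% of all genes lay, and 1 of 9 (11.1%) lower, against 10.2% of all genes. Both shares lay near those of all genes. BUB3 (ENSG00000154473) was at 426.0 CPM in the control, 368.5 CPM at 0.5 nM and 314.4 CPM at 1.5 nM. Its ratios were -0.21 [-0.26, -0.16] and -0.44 [-0.49, -0.39], and it was the 1 checkpoint gene past -0.3. The partners that BUB3 brings to kinetochores stood the other way. BUB1 (ENSG00000169679) was at 295.1 CPM, 323.6 CPM and 342.1 CPM, with 0.13 [0.08, 0.19] and 0.21 [0.16, 0.26]. BUB1B (ENSG00000156970), which encodes BUBR1 of the mitotic checkpoint complex, was at 244.4 CPM, 248.4 CPM and 258.0 CPM, with 0.02 [-0.04, 0.08] and 0.08 [0.02, 0.14].

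MAD1L1 (ENSG00000002822), whose protein MAD1 recruits MAD2 to kinetochores, had 34.7 TPM in the control, 38.6 TPM at 0.5 nM and 43.5 TPM at 1.5 nM. Its CPM ratios were -0.01 [-0.17, 0.14] at 0.5 nM and 0.29 [0.15, 0.44] at 1.5 nM, just short of the threshold, and its TPM ratio at 0.5 nM was 0.15, so the level at 0.5 nM depends on the unit. Its counts are not whole. MAD2L1 (ENSG00000164109), uncertain in the same way, had 176.9 CPM, 180.6 CPM and 167.6 CPM, with -0.08 [-0.15, -0.01] at 1.5 nM. TTK (ENSG00000112742), the kinase that starts checkpoint signalling, had 111.8 CPM, 105.5 CPM and 100.1 CPM, with -0.08 [-0.17, 0.01] and -0.16 [-0.25, -0.07]. ZW10, KNTC1 and ZWILCH, whose proteins bring dynein and MAD1 to kinetochores, had -0.19, -0.16 and 0.00 at 1.5 nM.

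The chromosomal passenger complex corrects faulty attachments through its kinase aurora B. INCENP (ENSG00000149503), its scaffold, was at 85.0 CPM in the control, 68.3 CPM at 0.5 nM and 61.4 CPM at 1.5 nM. Its ratios were -0.32 [-0.42, -0.21] and -0.47 [-0.58, -0.36], and it was the 1 gene of the 43 past -0.3 at 0.5 nM. AURKB (ENSG00000178999), the kinase gene, was at 47.3 CPM, 42.1 CPM and 41.8 CPM, with -0.17 [-0.31, -0.03] and -0.18 [-0.32, -0.04]. BIRC5 (ENSG00000089685), which encodes survivin, was at 118.3 CPM, 111.2 CPM and 123.3 CPM, with -0.09 [-0.18, -0.00] and 0.06 [-0.02, 0.14]. CDCA8, the borealin gene, was at 88.9 CPM, 87.7 CPM and 88.9 CPM. INCENP was thus the 1 passenger gene below the control by more than the threshold at either dose. At 0.5 nM INCENP was short of the threshold with total-count scaling (-0.29), in TPM (-0.23) and with the GC trend removed (-0.25).

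Shugoshins protect centromeric cohesin and help place the passenger complex. SGO2 (ENSG00000163535) was at 143.5 CPM in the control, 161.4 CPM at 0.5 nM and 179.2 CPM at 1.5 nM, with 0.17 [0.09, 0.24], or 0.06 with the trend over GC content removed, and 0.32 [0.25, 0.39]. It was the 1 gene of the 43 past 0.3 at 1.5 nM. SGO1 (ENSG00000129810) was at 22.3 CPM, 25.2 CPM and 22.6 CPM, with 0.17 [-0.02, 0.37] and 0.02 [-0.18, 0.21].

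At 1.5 nM against 0.5 nM, 4 of 43 genes (9.30%) were lower, against 8.0% of all genes (906 of 11322), and 1 (2.33%) was higher, against 9.52%. The lower genes were CENPK with -0.52, SPC25 with -0.45, SKA2 with -0.33 and DSN1 with -0.32, and the higher one was MAD1L1 with 0.31 [0.15, 0.47]. SPC24, at -0.30 [-0.55, -0.05], lay just short before rounding. None passed a 2-fold difference, which 0.477% of all genes did upward and 0.495% downward. The median of the 43 genes was -0.08, with 13 above 0, against 50.1% of all genes, and 30 below 0 (69.8%), against 49.9%. At the 1 CPM filter the shares past 0.3 downward lay close together for the 43 genes and for all genes. With the filter at 5 CPM 4 of the 43 were still lower, against 5.65% of all genes, so that closeness depends on the filter. The all-gene share of higher genes was then 6.45%.

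Among 17 other centromere and kinetochore genes the median was 0.04 at 0.5 nM and -0.06 at 1.5 nM, with 3 lower (17.6%, against 10.2% of all genes) and 1 higher (5.88%, against 13.1%) at 1.5 nM. CENPC, the scaffold that links CENP-A nucleosomes to the MIS12 complex, was at 63.4 CPM in the control, 58.7 CPM at 0.5 nM and 43.1 CPM at 1.5 nM, a ratio of -0.55 at 1.5 nM. HASPIN, the kinase whose histone mark recruits the passenger complex, had -0.37, and NDE1, a dynein regulator with counts that are not whole, had 0.38. The CENP-A chaperone gene HJURP had -0.26.

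The anaphase-promoting complex, its regulators and separase, 22 genes, had medians of -0.04 and -0.02. At 1.5 nM 2 were higher (9.09%) and 2 lower (9.09%), both shares under the 13.1% and 10.2% of all genes. With the filter at 5 CPM the all-gene shares were 9.63% higher and 8.18% lower, on either side of 9.09%. CDC20, the target of the checkpoint, was at 144 CPM in the control, 146 CPM at 0.5 nM and 203 CPM at 1.5 nM, a ratio of 0.49 at 1.5 nM. FZR1, which encodes the other activator, CDH1, was at 45.7 CPM, 38.0 CPM and 33.7 CPM, a ratio of -0.44. Of the ubiquitin-conjugating enzyme genes that serve the complex, UBE2S had 0.34 and UBE2C -0.35, and the securin gene PTTG1 had 0.09. The core subunit genes lay between -0.16 and 0.11.

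Lists of other genes by cell cycle stage were set beside these values. Of 42 S phase genes, 32 were lower at 1.5 nM (76.2%, against 10.2% of all genes), with a median of -0.41, and WDR76, a DNA damage response gene, had -1.01. Of 46 other G2 and M phase genes, 9 were lower (19.6%, against 10.2% of all genes) and 9 higher (19.6%, against 13.1%), with a median of 0.00. The 43 kinetochore and checkpoint genes lay between these lists with -0.12. Of the regulators of such promoters, MYBL2 had -0.41, RBL1, a pocket protein gene, -0.52, E2F1 -0.50 and FOXM1, whose counts are not whole, -0.09 at 1.5 nM. CDKN1A, which encodes the p21 inhibitor, was at 11.7 CPM in the control, 31.8 CPM at 0.5 nM and 19.7 CPM at 1.5 nM. No test of the difference between lists was run.

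**Figure D4:**
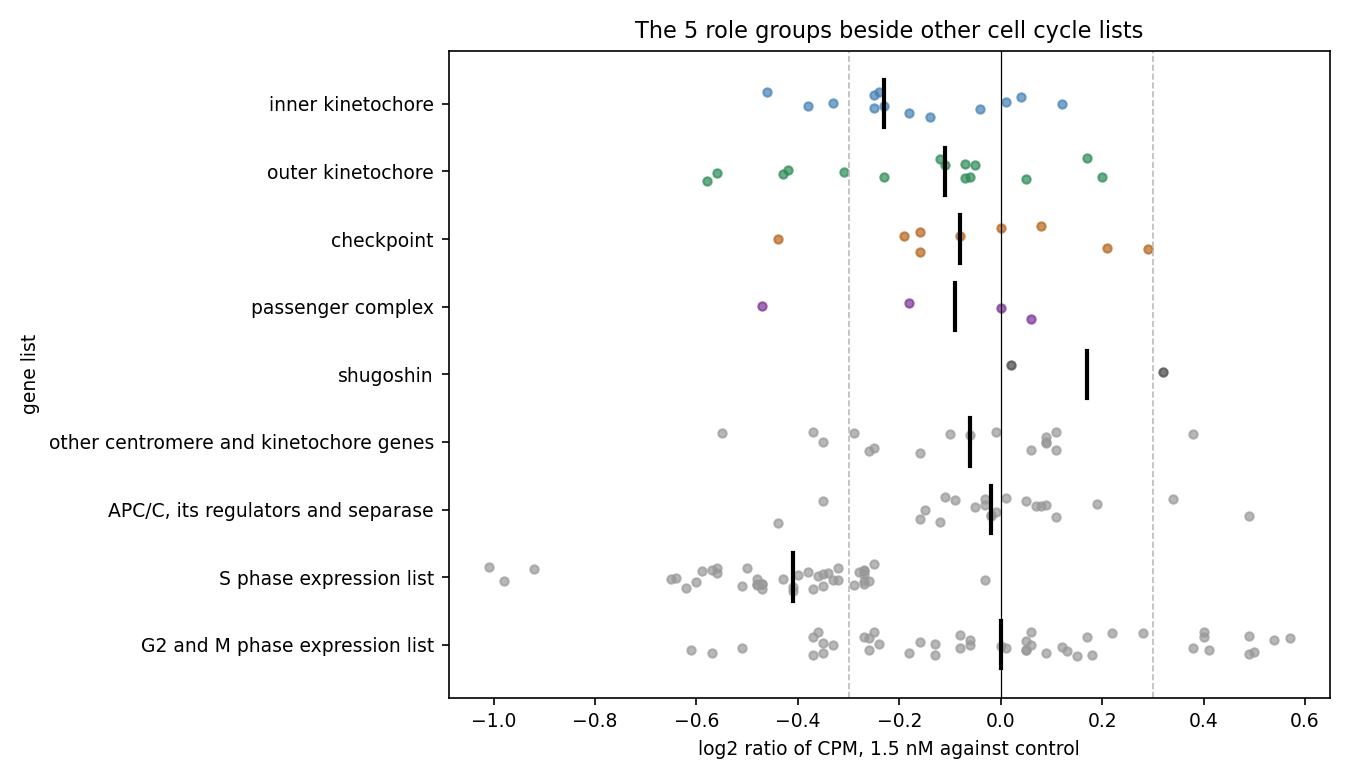
Log2 ratio of CPM at 1.5 nM against the control (horizontal axis) for the genes of the 5 role groups and of 4 other lists, 1 point per gene, with black bars at each list's median and dashed lines at -0.3 and 0.3. The S phase list has its median at -0.41 and the G2 and M phase list at 0.00, with the larger role groups between them.

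A split by membership in a published list of G2 and M phase genes was made after the values were seen. The list, in wide use, holds 10 of the 43 genes: BIRC5, NDC80, NUF2, CENPF, AURKB, BUB1, TTK, CDCA8, CENPE and CENPA. Absence from it does not place a gene in another stage, and the 33 genes outside it include the checkpoint genes BUB1B and MAD2L1. At 1.5 nM their median log2 ratio was 0.03 and their range -0.18 to 0.21. None of these 10 was past 0.3, where 10.2% of all genes were lower and 13.1% higher, and 10 genes are few for such shares. The other 33 genes had a median of -0.18 and a range of -0.58 to 0.32. They held all 10 lower genes (30.3% of the 33, against 10.2% of all genes) and the 1 higher gene (3.03%, against 13.1%). At 0.5 nM the medians were 0.04 for the 10 genes and -0.08 for the 33.

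RefSeq promoter windows of 300 bases were found for 35 of the 43 genes, 41 windows in all. A CHR match lay in 18 of the 35 genes (51.4%) and in 46.3% of their windows, against 16.4% of all 35116 windows. E2F matches lay in 34.1% of their windows against 13.0%, and CCAAT boxes in 65.9% against 34.6%. The 35116 windows were not limited to the genes kept for analysis, so these shares have another background than the ratios. In 3 windows matches to different motifs overlapped. At 1.5 nM against the control, genes with a CHR match had a median of -0.08 and those without one -0.11, and genes with an E2F match had -0.12 against -0.07 without. Genes with a CCAAT box had -0.14 and those without one -0.06. No test of these differences was run, and a match is a description of the sequence, not a site in use.

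**Figure D5:**
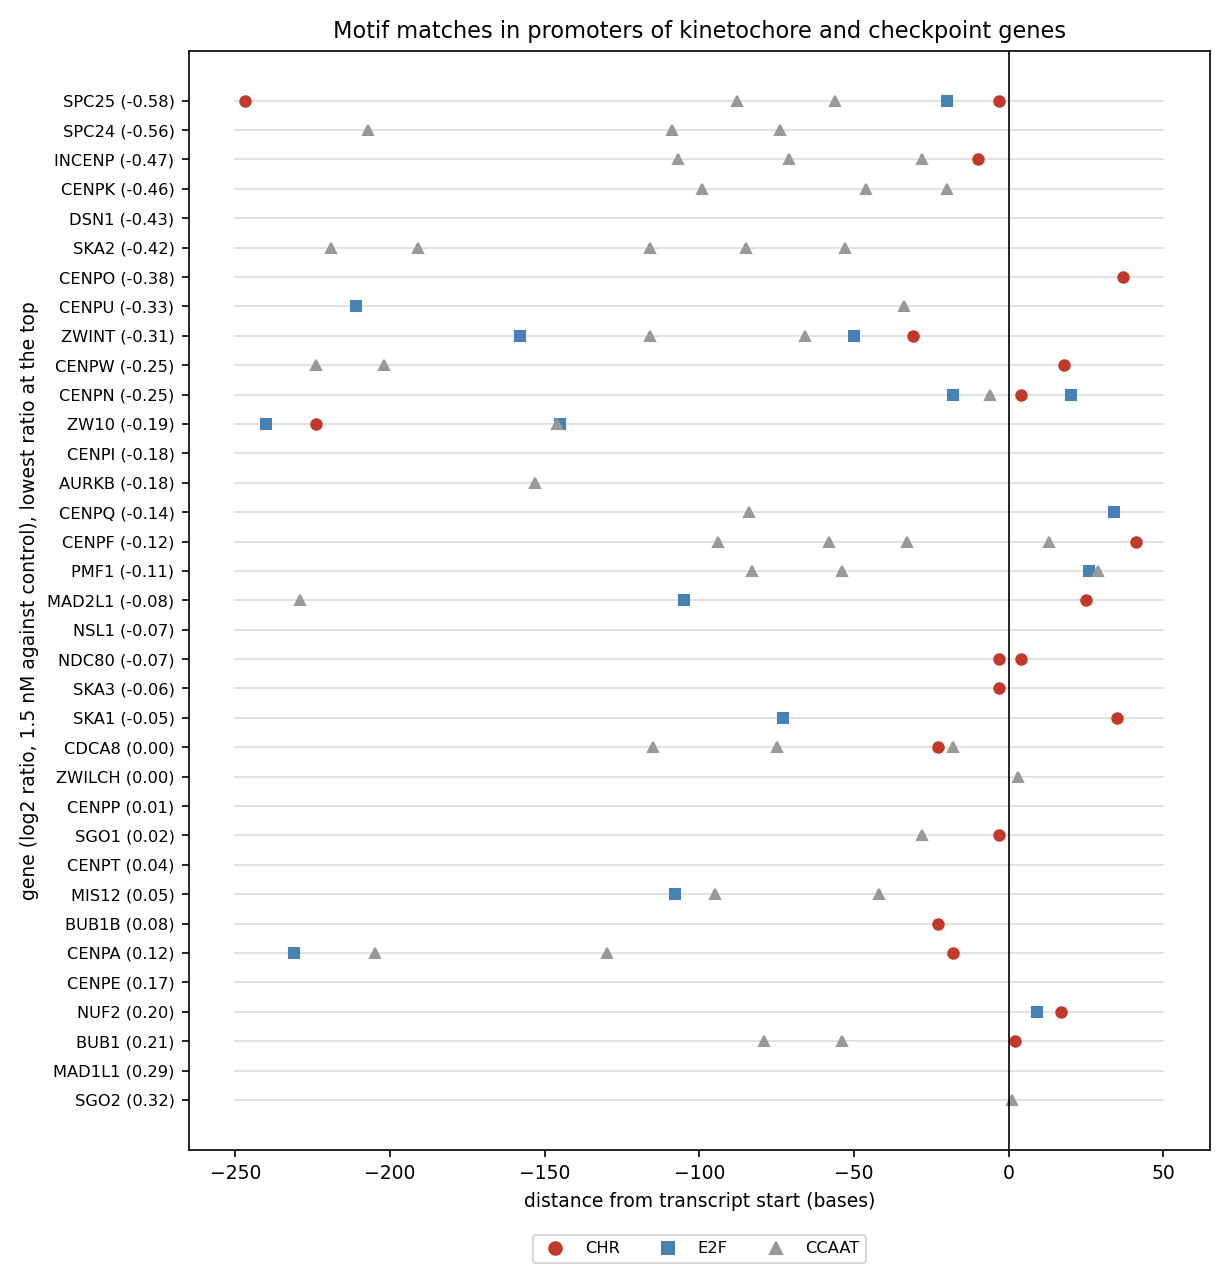
Motif matches (points) by distance in bases from the RefSeq transcript start for the 35 genes with a promoter window, ordered from the lowest log2 ratio at 1.5 nM against the control (SPC25) to the highest (SGO2); for the 5 genes with several windows the one with the lowest coordinate is drawn. CHR matches lie mostly near the start and occur along the whole order of ratios.

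Transcripts of the 43 genes are poorer in G and C than most, with a median GC content of 41.7% against 48.0% for all genes analysed. Over the 43 genes the ratio at 0.5 nM went with GC content (Spearman -0.50, n = 43), as it did over 11252 genes (-0.27), while at 1.5 nM the values were 0.01 over the 43 genes and 0.13 over all genes, with the sign over all genes turned. Between doses they were 0.31 over the 43 genes and 0.40 over all genes. These genes share their libraries and depth, and genes are not independent replicates. With the GC trend removed, INCENP had -0.25 at 0.5 nM and was no longer counted, and between doses SKA2 with -0.22 and DSN1 with -0.26 were no longer counted while SPC24 was, with -0.35. The count of lower genes at 1.5 nM against the control was 10 with and without the trend.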

How the data were processed

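The members and gene lists were chosen with earlier results of these data known. Per the labels' protocols, oligo(dT)-selected RNA went into 3 Illumina libraries, 1 per group. One table deposited by the authors holds an estimated count and a TPM value per gene and library; the submitters' processing notes name StringTie 1.3.1, HISAT2, fastp 0.18.0, edgeR and DESeq2, without roles. The genome build is not given in the sources used here, nor is the annotation. Columns numbered 0, 1 and 2 were read as control, 0.5 nM and 1.5 nM; this rests on the order of the numbers, and were columns 1 and 2 swapped, every statement on dose would be exchanged. Estimated counts were rounded, genes averaging at least 1 CPM kept (11322), and TMM factors taken from edgeR 4.0.16 under R 4.3.3; log2 values used a prior count of 2. The differences between libraries are log2 ratios of these CPM values, without p-values, and the planned design had no test. CPM values are counts over the scaled library size. Intervals are Clopper-Pearson at 95%, from scipy 1.17.1; PCR copies are not independent molecules. Of the 43 genes, 11 have counts that are not whole in some library (22.2% of all genes kept do). They are CENPL, CENPO, CENPP, CENPT, CENPU, PMF1, SKA1, SPC25, MAD1L1, MAD2L1 and ZWILCH. All their values are uncertain, also where no remark stands beside them, and the sources do not say why the counts are not whole. Transcript GC content came from GENCODE release 29, for 99.4% of genes, and its trend was removed by lowess with a span of 0.3 (statsmodels 0.14.6). Promoters are from RefSeq, GRCh38.p14. Of 41 windows, 39 had a stretch of the bases after the start found somewhere in a GENCODE transcript of the gene. This does not check the start itself. The log2 ratio and interval steps were tested on simulated counts with differences of 2-fold or more. That simulation did not cover differences near the 0.3 threshold, the TPM ratios or the removal of the GC trend.

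All genes of the list may be named. Those given in full are CENPA, CENPE, CENPF, NDC80, KNL1, BUB1, BUB1B, MAD2L1, TTK, INCENP, BIRC5 and AURKB, the 3 of each role group with the largest absolute ratio at 1.5 nM and the 2 at 0.5 nM, and the gene with the largest ratio between doses. Of the other lists the 3 largest ratios at 1.5 nM were eligible, with CDC20, UBE2C, PTTG1, CDKN1A, FOXM1 and MYBL2. Genes of the other lists outside this rule, and the NDC80 subunit share, the BUB3 to BUB1 ratio and the split by the published list, were chosen after their values were seen. Alternatives were total-count scaling, DESeq2 1.42.0 size factors, deposited TPM with a pseudocount of 1, a prior count of 0.5, no filter, a mean of 5 or more CPM, whole-count genes alone and removal of the GC trend.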

Additional observations from a re-analysis of the deposited data

How the results depend on the processing

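No paired analysis was possible because each group has 1 library, and no library could be left out. The alternatives were computed for the medians of the 43 genes and of 4 groupings of them, and for the counts past 0.3. The count of lower genes at 1.5 nM was 10 as reported, 9 with total counts, 7 with whole-count genes and 10 under the others. The 7 are out of fewer genes, since 11 of the 43 do not enter among whole-count genes, CENPO, CENPU and SPC25 among them. The all-gene share of lower genes was 10.2% as reported, 8.5% with total counts, 9.92% with whole-count genes and 7.56% with TPM. It was 8.18% with a mean of 5 or more CPM, 18.8% with no filter and between 10.2% and 10.6% under the rest. ZWINT dropped out with total counts, and with TPM ZWINT and SKA2 dropped out while NSL1 and CENPI, with -0.34 and -0.30, came in. No gene past 0.3 changed direction. At 0.5 nM, small medians crossed 0. The checkpoint median, -0.01 as reported, was 0.01 with total counts and 0.09 with TPM. With TPM the outer kinetochore median was 0.02 and that of passenger and shugoshin genes 0.01, both -0.06 as reported. The all-gene median moved too, from 0.00 to 0.03 with total counts and 0.06 with TPM. Of these group medians, only the checkpoint median with TPM lay above the all-gene median. The 1 higher gene at 1.5 nM became 2 with total counts, with TPM and with a mean of 5 or more CPM, since MAD1L1 lies at the threshold. In that order, 14.9%, 13.5% and 9.63% of all genes were higher. The 1 lower gene at 0.5 nM, INCENP, became 0 with total counts, with TPM and with the GC trend removed, where 4.38%, 3.04% and 4.38% of all genes were lower. Between doses, the 1 higher gene became 0 with TPM, with the GC trend removed and with whole-count genes, which MAD1L1 does not enter. All-gene shares of higher genes were then 6.95%, 7.1% and 9.41%. The 4 lower genes became 7 with TPM and 3 with the GC trend removed (CENPK, SPC25 and SPC24), where 9.08% and 7.61% of all genes were lower. The checkpoint median moved to -0.17 at 1.5 nM with whole-count genes (fewer genes enter) and to -0.01 between doses with the GC trend removed. In TPM BUB1 had 0.23 at 0.5 nM, and CENPN had -0.13, ZW10 -0.06 and KNTC1 -0.26 at 1.5 nM. The cause of the other shifts was not tested. The median half-width of the counting intervals at 1.5 nM was 0.12 and the widest 0.24. The width depends on each gene's counts, so a difference within a gene's own half-width cannot be told from counting error. Differences between cultures are not covered at all.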
